A study of Mus musculus with 10 samples.

Results

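The imprinted genes of the mouse that lie outside the Dlk1-Dio3 cluster were examined here in livers of male mice given phenobarbital and in control livers. Members were the probe sets whose platform annotation names any of 35 listed imprinted genes, also where it names another gene beside it. They came to 90 of the 45101 probe sets and covered 33 of the 35 genes, while Slc22a3 and Zrsr1 had no listed probe set and were not analysed here. The phenobarbital group was 5 male B6C3F1/Crl hybrids (C57BL/6 male × C3H/He female) that drank 0.05% (w/v) phenobarbital for 28 days and were killed on day 28, and the control group was 5 animals of the same sex, strain and source. The mice arrived at 29 to 32 days of age and were randomised after 5 days of acclimatisation. Whole-liver RNA of each animal was hybridised to its own Affymetrix array, and the values are log2 expression levels per probe set as deposited. With 5 animals per group, this number limits the precision.

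Imprinted genes are transcribed mainly or only from either the maternal or the paternal copy, depending on the gene and often on the tissue. The choice of copy is carried by DNA methylation at an imprinting control region, which is set in the egg or sperm and kept through cell division, and a control region often governs a cluster of neighbouring genes through insulation or a long non-coding RNA. Many of these genes act on foetal growth, and several, among them Igf2 and H19, are abundant in foetal liver and silenced after birth. The arrays do not tell the parental copies apart, so the values are total RNA levels and not a measure of imprinting. In whole liver, fewer cells of a type and less RNA per cell cannot be told apart.

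Upstream sequences of 4 members that passed the test are shown, since DNA methylation acts at CG dinucleotides and the study's title concerns 5-hydroxymethylcytosine, an oxidised form of methylcytosine. Each is the 250 bases before the annotated start in RefSeq (GRCm38.p6), 5′ to 3′ on the gene's strand, with the CG dinucleotides in capitals.
Ube3a (chr7:59228500-59228749, plus strand): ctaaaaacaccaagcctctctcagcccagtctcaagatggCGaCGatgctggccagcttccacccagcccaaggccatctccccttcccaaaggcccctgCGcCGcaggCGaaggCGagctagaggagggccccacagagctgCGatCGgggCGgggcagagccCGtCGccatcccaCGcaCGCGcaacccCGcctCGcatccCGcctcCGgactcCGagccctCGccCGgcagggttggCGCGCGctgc
Slc22a18 (chr7:143473539-143473788, plus strand): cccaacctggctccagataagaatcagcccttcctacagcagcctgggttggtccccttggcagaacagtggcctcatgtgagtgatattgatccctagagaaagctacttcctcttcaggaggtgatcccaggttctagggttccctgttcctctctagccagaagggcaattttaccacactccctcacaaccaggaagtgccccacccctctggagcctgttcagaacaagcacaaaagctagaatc
Nnat (chr2:157559828-157560077, plus strand): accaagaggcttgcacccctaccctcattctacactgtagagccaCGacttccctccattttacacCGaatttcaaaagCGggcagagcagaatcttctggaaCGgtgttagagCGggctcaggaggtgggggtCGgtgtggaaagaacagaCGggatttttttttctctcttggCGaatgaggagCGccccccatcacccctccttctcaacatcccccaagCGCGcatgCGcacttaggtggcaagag
Peg3 (chr7:6730420-6730669, minus strand): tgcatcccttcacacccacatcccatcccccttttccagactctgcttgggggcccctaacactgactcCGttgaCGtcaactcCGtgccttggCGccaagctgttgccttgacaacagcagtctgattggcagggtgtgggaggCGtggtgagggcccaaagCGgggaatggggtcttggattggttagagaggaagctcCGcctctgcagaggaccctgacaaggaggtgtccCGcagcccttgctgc
The window of Ube3a held 24 CG dinucleotides, that of Nnat 12, that of Peg3 8 and that of Slc22a18 none. Among all 32851 starts in the table the median was 6, and 89.3% of them had no more than Ube3a, 68.5% no more than Nnat, 59.7% no more than Peg3 and 7.87% no more than Slc22a18. Over the 44 starts listed for 29 members the median was 11. The windows of Peg3 and Usp29, which are transcribed away from each other, share 163 bases. The letters AGGTCA, a half-site of nuclear receptors, were searched on both strands and occurred at 3 of the members' 44 starts (6.82%), those of Airn and Igf2r and a start of Igf2, against 14.0% of all starts. GCCATNTT, the core of YY1 sites, occurred at 2 of the 44 (4.55%), those of Ube3a and Mkrn3, against 3.91% of all. TGACGTCA, the palindromic cAMP response element, stood in the Peg3 window and in 1.55% of all. These are matches of letters and not shown to be bound.

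The arrays differed on technical measures. Poly-A spike-ins, bacterial RNAs added before labelling, averaged between 5.755 and 6.579 on the phenobarbital arrays, against 7.772 to 8.637 on control replicates 1, 2, 3 and 5 and 6.395 on control replicate 4. This is a property of the arrays and no label names a batch. The upper quartile was 7.30 to 7.36 on phenobarbital arrays and 7.39 to 7.46 on control arrays. Measures of RNA quality moved with the groups too. The Gapdh 3′ minus 5′ difference was -0.28 to -0.21 on phenobarbital arrays and -0.15 to -0.03 on control arrays, without overlap. The actin difference was 1.19 to 1.33 on phenobarbital arrays and 1.28 to 1.78 on control arrays, and the 18S ribosomal RNA mean was 12.627 to 13.733 on phenobarbital arrays and 13.68 to 14.097 on control arrays. Their part in the differences between probe sets of a gene given for Ube3a, Snrpn, Ndn and Peg3 was not tested. Control replicate 4 is therefore the sole control that shares the low spike-in set with the treated arrays, and the fit with that set as a block compares the treated arrays with it alone. Cyp2b10, the classical phenobarbital-induced cytochrome P450, was at 13.52 ± 0.04 in phenobarbital livers and 6.47 ± 0.66 in control livers (SD, n = 5 each).

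Of the 35 genes, 32 had a probe set naming them alone and entered the gene-level test, each through its brightest such probe set. By limma, 8 of the 32 were called at an adjusted p under 0.05, with 4 of them higher and 4 lower, where 20.3% of all 18193 genes passed, 9.02% higher and 11.3% lower. The genes called higher in phenobarbital livers were Slc22a18, Asb4, Nnat and Peg10, and those called lower were Ube3a, Ppp1r9a, Peg3 and Igf2r. Changes were modest: the median absolute log2 change of the 8 was 0.45, beside 0.36 over all 3692 genes called. The median log2 change of the 32 was 0.06, beside 0.01 over all genes. The groups did not overlap in 6 of the 32 (18.8%), 3 higher and 3 lower, against 12.9% of all genes, 5.73% higher and 7.21% lower. Over all 90 probe sets tested singly, 12 were called higher (13.3%) and 8 lower (8.89%), against 18.7% of all probe sets, 7.7% higher and 11.0% lower. Separation without overlap was seen in 10 higher (11.1%) and 5 lower (5.56%) probe sets, against 11.8% of all, 5.29% higher and 6.54% lower. Of the 90, 15 lay below the lower quartile of every array.

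**Figure D1:**
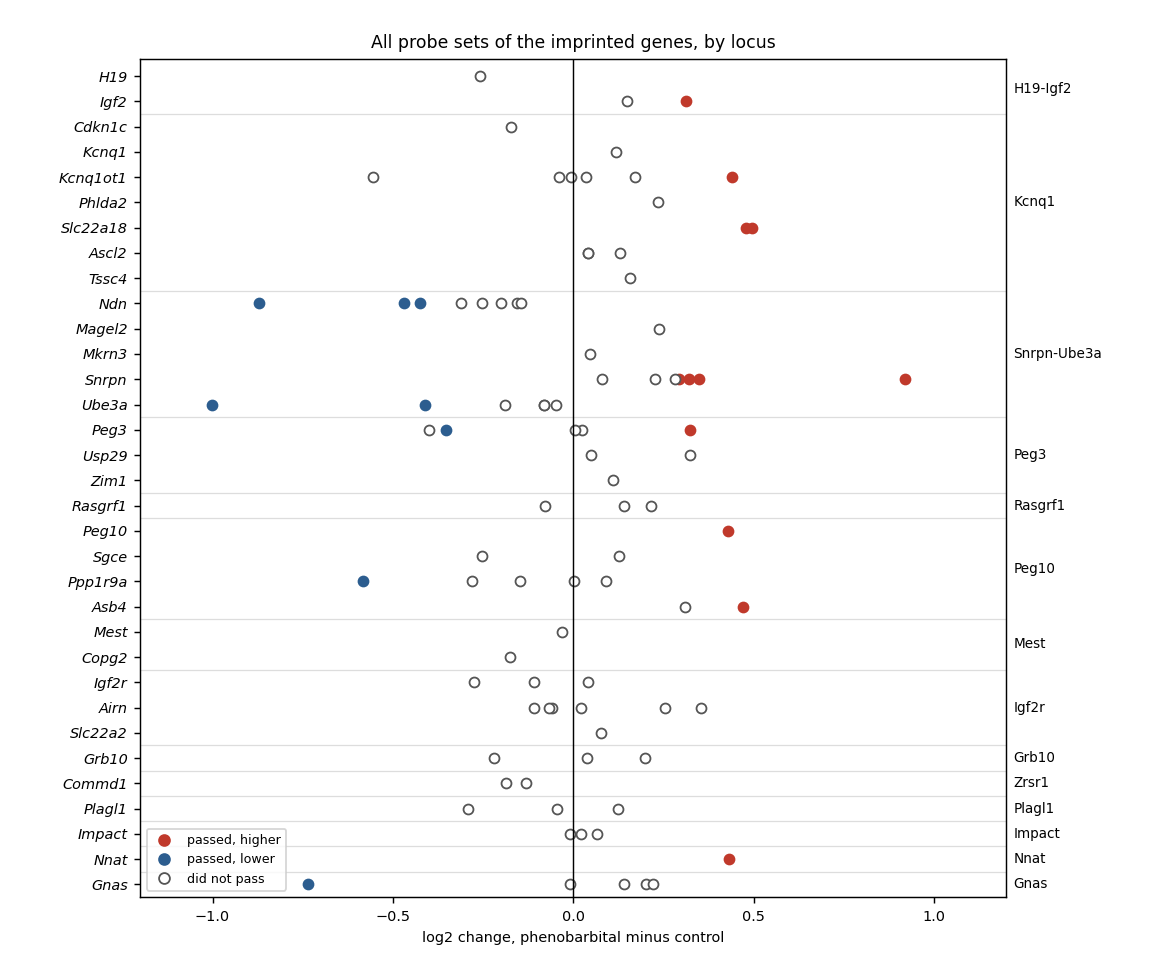
Log2 change (phenobarbital minus control, x axis) of every member probe set, in a row per gene and grouped by locus; filled points passed the probe-set test (red higher, blue lower) and open points did not. Of the 90 probe sets 12 passed higher and 8 lower, all 8 of Ndn and all 6 of Ube3a lie left of 0, and all 7 of Snrpn lie right of it.

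With the spike-in set as a block, none of the 32 genes and none of the 90 probe sets passed limma, where 0.786% of all genes and 0.389% of all probe sets passed. With the spike-in mean as a covariate none passed either. Cyp2b10 passed in the block fit (log2 change 7.57, limma adjusted p = 1.62e-06). With the block 7 uncalled genes changed sign: Gnas (-0.13), Grb10 (-0.29), Ascl2 (-0.31), Tssc4 (-0.08), Copg2 (0.01), Rasgrf1 (0.07) and Snrpn on the probe set that names it alone (-0.004). No called gene or probe set did. Where the groups do not overlap, as in most of these, control replicate 4 lies on the control side of every treated animal. The sign could not turn there, so its keeping is no sign of stability. The sizes stayed close to those of all 10 arrays for Asb4 (0.53 with the block, 0.47 without), Nnat (0.44 and 0.43) and Peg3 (-0.39 and -0.35). They were smaller for Ppp1r9a (-0.38 and -0.58), Ube3a (-0.54 and -1.002), Igf2r (-0.15 and -0.28), Slc22a18 (0.20 and 0.48) and Peg10 (0.13 and 0.43). The part of the array set in these changes cannot be told apart from that of the control animals on the high set.

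**Figure D2:**
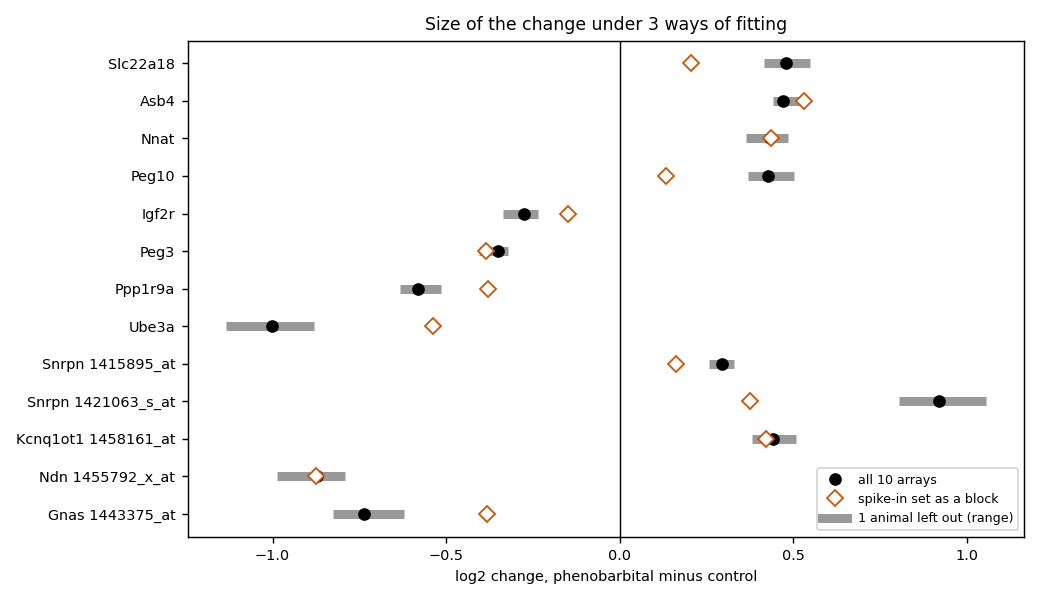
Log2 change (x axis) of the 8 called genes and of 5 called probe sets, with all 10 arrays (black), with the spike-in set as a block (open diamonds) and as the range when 1 animal was left out (grey bars). All stay on their side of 0, which could not be otherwise where the groups do not overlap. The diamonds of Slc22a18, Peg10, Ube3a, Ppp1r9a, Igf2r, Gnas and both Snrpn probe sets lie closer to 0 than their black points. Those of Asb4, Nnat, Peg3, Ndn and Kcnq1ot1 lie near their black points.

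Ube3a, the E3 ubiquitin ligase whose maternal copy is the active one in neurons while both copies are active in most other cells, showed the largest change among the members on its brightest probe set with all 10 arrays. With the spike-in block the Ndn probe set described further on was larger (-0.87, with -0.54 for Ube3a), and averaged over its probe sets Ube3a was at -0.30, with Slc22a18 at 0.49. On its brightest probe set it stood at 9.12, 8.28, 8.36, 8.24 and 9.16 in phenobarbital livers, against 9.63, 9.66, 10.12, 9.17 and 9.59 in control livers. All treated animals lay below all controls, with phenobarbital replicates 1 and 5 just under control replicate 4. The log2 change was -1.002 ± 0.21 (SE, limma adjusted p = 0.00635), which leaves 49.9% of the control level. Another 2 probe sets carry the same transcript accession in the annotation. Of these, that ranked 3 by brightness was at 6.12, 5.78, 5.88, 5.69 and 5.84 in phenobarbital livers, against 6.41, 6.03, 6.72, 5.95 and 6.26 in control livers, with overlapping groups (log2 change -0.41 ± 0.13 SE, limma adjusted p = 0.0488 over all probe sets; lost in 7 of 10 omissions of an animal; -0.09 with the spike-in block). That ranked 2 was at 6.99, 6.62, 7.02, 6.73 and 7.04 in phenobarbital livers, against 6.87, 7.16, 7.34, 7.01 and 6.96 in control livers, and did not pass (-0.19 ± 0.11 SE, limma adjusted p = 0.242). The difference of the brightest minus the probe set ranked 2 on the same array was 1.34 to 2.13 in phenobarbital livers and 2.16 to 2.78 in control livers. The other 3 Ube3a probe sets were dim, with log2 changes of -0.08 to -0.05.

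Ppp1r9a encodes neurabin, which binds actin and targets protein phosphatase 1. Its brightest probe set gave 6.39, 5.98, 6.26, 6.27 and 6.36 in phenobarbital livers, against 6.95, 6.94, 6.99, 6.63 and 6.66 in control livers. The groups did not overlap, and the log2 change was -0.58 ± 0.10 (SE, limma adjusted p = 0.00226). Its other 4 probe sets had log2 changes between -0.28 and 0.09 and did not pass.

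Peg3, a zinc finger gene active from the paternal copy, gave probe sets that moved in opposite directions. The brightest by mean was at 6.48, 6.59, 6.57, 6.65 and 6.63 in phenobarbital livers, against 6.72, 7.06, 7.06, 6.97 and 6.87 in control livers, with no overlap (log2 change -0.35 ± 0.08 SE, limma adjusted p = 0.00757). A dimmer probe set, ranked 3 of 5 by brightness, was called higher at 5.15, 5.19, 5.03, 5.09 and 5.03 in phenobarbital livers, against 4.65, 5.06, 4.81, 4.93 and 4.42 in control livers (0.32 ± 0.11 SE, limma adjusted p = 0.0495 over all probe sets; 0.17 with the spike-in block). The groups overlapped there, control replicate 2 lying above 2 treated animals, and the call was lost in 8 of 10 omissions of an animal. The difference between both probe sets on the same array was 1.33 to 1.60 in phenobarbital livers and 2.00 to 2.45 in control livers. Of the other 3 probe sets, that ranked 2 had a log2 change of -0.40 that did not pass, and 2 near the bottom of the scale were at 0.01 and 0.02. Averaged over its probe sets, Peg3 was at -0.08 and did not pass (limma adjusted p = 0.324). Usp29, a ubiquitin-specific protease gene that shares the upstream region with Peg3, had log2 changes of 0.05 and 0.32 on 2 probe sets, and the zinc finger gene Zim1 of 0.11, none passing.

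Igf2r encodes the receptor that carries Igf2 and mannose 6-phosphate proteins to lysosomes, and it is the maternally expressed gene that the antisense RNA Airn silences on the paternal copy. The brightest probe set was at 8.49, 8.34, 8.23, 8.24 and 8.21 in phenobarbital livers, against 8.65, 8.34, 8.71, 8.45 and 8.74 in control livers. The groups overlapped, since phenobarbital replicate 1 lay above control replicates 2 and 4. The log2 change of -0.28 ± 0.09 (SE) passed over genes (limma adjusted p = 0.0448) and not over probe sets (0.0514). The call was lost in 7 of 10 omissions of a single animal. The other probe set that names Igf2r alone had a log2 change of 0.04. Airn, on its brightest probe set, was at 5.77, 6.56, 6.36, 6.27 and 6.44 in phenobarbital livers, against 5.91, 5.74, 5.91, 5.81 and 6.26 in control livers. Phenobarbital replicate 1 lay within the controls, and the log2 change of 0.35 ± 0.14 (SE) did not pass (limma adjusted p = 0.0844). Slc22a2, an organic cation transporter of the cluster, had a log2 change of 0.08 that did not pass.

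**Figure D3:**
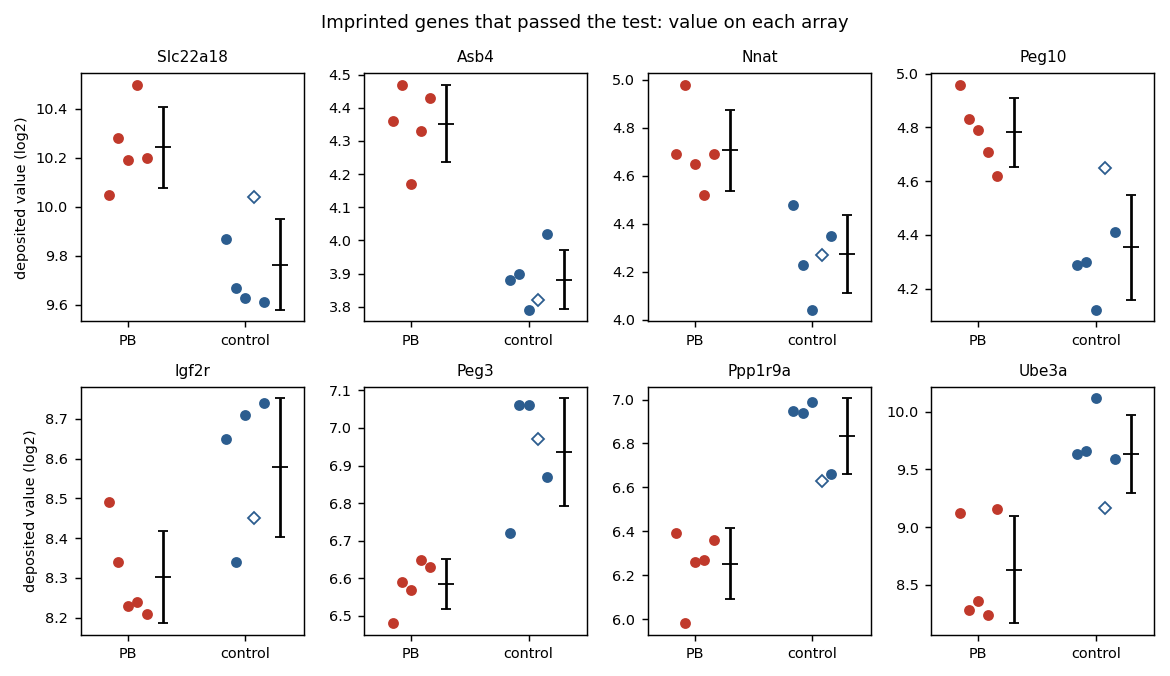
Deposited log2 value (y axis, a scale of its own in each panel) of the 8 called genes on each array, phenobarbital (PB, red) left of control (blue), with mean ± SD (n = 5) as a bar and control replicate 4 as an open diamond. The groups overlap for Igf2r and Peg10 and are separate in the other 6 panels.

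Slc22a18, an organic cation transporter-like membrane protein of the Kcnq1 domain, was called higher on both of its probe sets, at levels above the upper quartile of every array. The brighter was at 10.05, 10.28, 10.19, 10.50 and 10.20 in phenobarbital livers, against 9.87, 9.67, 9.63, 10.04 and 9.61 in control livers. The dimmer was at 9.60, 9.80, 9.65, 9.79 and 9.59 in phenobarbital livers, against 9.31, 9.10, 9.06, 9.37 and 9.11 in control livers. On both, every treated animal lay above every control, narrowly on the first, and control replicate 4 was the highest control. The log2 changes were 0.48 ± 0.10 and 0.50 ± 0.08 (SE, limma adjusted p = 0.0087 and 0.00277 over all probe sets), a rise of 1.39-fold on the first. With the spike-in block they were 0.20 and 0.32.

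The other genes called higher were dim. Asb4, an ankyrin repeat protein that serves as adaptor in a ubiquitin ligase, was at 4.36, 4.47, 4.17, 4.33 and 4.43 in phenobarbital livers, against 3.88, 3.90, 3.79, 3.82 and 4.02 in control livers. The groups did not overlap (log2 change 0.47 ± 0.07 SE, limma adjusted p = 0.00148). All control values lay below the lower quartile of their arrays (4.13 to 4.20). The other Asb4 probe set was dimmer still, had overlapping groups and did not pass (0.31 ± 0.11 SE, limma adjusted p = 0.0643 over all probe sets). Nnat, a small membrane protein of the endoplasmic reticulum, was at 4.69, 4.98, 4.65, 4.52 and 4.69 in phenobarbital livers, against 4.48, 4.23, 4.04, 4.27 and 4.35 in control livers, again without overlap (0.43 ± 0.10 SE, limma adjusted p = 0.00919). Peg10, derived from a retrotransposon and needed for the placenta, was at 4.96, 4.83, 4.79, 4.71 and 4.62 in phenobarbital livers, against 4.29, 4.30, 4.12, 4.65 and 4.41 in control livers (0.43 ± 0.10 SE, limma adjusted p = 0.00961). Control replicate 4 lay above the lowest treated animal there. Whether a transcript was present at such levels was not tested. Of all genes with a mean under the median of probe set means (5.45), 687 of 6539 were called higher (10.5%) and 232 lower (3.55%), and of the 11654 at or above it 954 higher (8.19%) and 1819 lower (15.6%). Among the members these were 3 higher and none lower of 8 dim genes, and 1 higher and 4 lower of 24 brighter ones.

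In the Snrpn-Ube3a locus, Snrpn rose on 4 of its 7 probe sets. Snrpn encodes a splicing protein, shares its transcript with the small Snurf reading frame, and is expressed from the paternal copy. On the brightest probe set, which names both, the values were 10.48, 10.50, 10.40, 10.46 and 10.37 in phenobarbital livers, against 10, 10.04, 10.13, 10.28 and 10.29 in control livers. The treated animals lay above all controls by a small step (log2 change 0.29 ± 0.07 SE, limma adjusted p = 0.017; 0.16 with the spike-in block). On the probe set ranked 4 of 7 by brightness they were at 7.42, 7.89, 7.85, 8.11 and 7.60 in phenobarbital livers, against 7.04, 6.93, 6.51, 7.40 and 6.39 in control livers (0.92 ± 0.18 SE, limma adjusted p = 0.00619; 0.37 with the spike-in block). The 2 other called probe sets, ranked 2 and 3, rose by 0.32 and 0.35 (0.15 and 0.21 with the spike-in block). The difference of the probe set ranked 4 minus the brightest on the same array ran from -3.06 to -2.35 in phenobarbital livers and from -3.90 to -2.88 in control livers, so these ranges overlapped. The probe set that names Snrpn alone had a log2 change of 0.23 ± 0.08 (SE) and did not pass over genes (limma adjusted p = 0.053). It passed under quantile normalisation (0.30, limma adjusted p = 0.0194), median centring (0.0306), brighter probe sets alone (0.0435), the mean of its probe sets (0.0432), array weights (0.0265) and without control replicate 4 (0.28, 0.00956). Across the omissions of an animal its adjusted p ran from 0.00956 to 0.115, and with the spike-in block it was at -0.004. With shared probe sets allowed, a choice made after the data were seen, it passed too (0.29, 0.014).

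Ndn, encoding necdin, a growth-suppressing protein of the MAGE family expressed from the paternal copy, had negative log2 changes on all 8 probe sets, of which 3 passed. The largest, on the probe set ranked 5 of 8 by brightness, rested on 4.16, 4.23, 4.68, 4.16 and 3.90 in phenobarbital livers, against 5.12, 5.27, 5.08, 5.10 and 4.92 in control livers. The groups were separate (log2 change -0.87 ± 0.12 SE, limma adjusted p = 0.0012; -0.87 with the spike-in block, adjusted p = 0.134). Those ranked 3 and 2 fell by 0.47 and 0.42, the second of these losing its call in 9 of 10 omissions of an animal. With the spike-in block these were at -0.21 and -0.09. The difference of the probe set ranked 5 minus the brightest on the same array ran from -2.22 to -1.54 in phenobarbital livers and from -1.53 to -0.94 in control livers. The brightest, which represents the gene, had a log2 change of -0.16 ± 0.07 (SE) that did not pass (limma adjusted p = 0.125). This probe set and that ranked 5 are of a kind (x_at) whose probes can match several transcripts. Magel2, another MAGE family gene, and the ring finger gene Mkrn3 were at 0.24 and 0.05, neither passing, and Mkrn3 lay below the lower quartile of every array. The 8 other genes in this interval were taken by position, whether imprinted or not, and include Atp10a of the list of other imprinted genes. Of these 1 passed, the unnamed RNA A230006K03Rik (0.32, higher). It was dim, with means of 3.54 in phenobarbital and 3.22 in control livers. Snhg14, the host RNA of the Ube3a antisense transcript, was at 0.20 ± 0.14 (SE, limma adjusted p = 0.31).

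**Figure D4:**
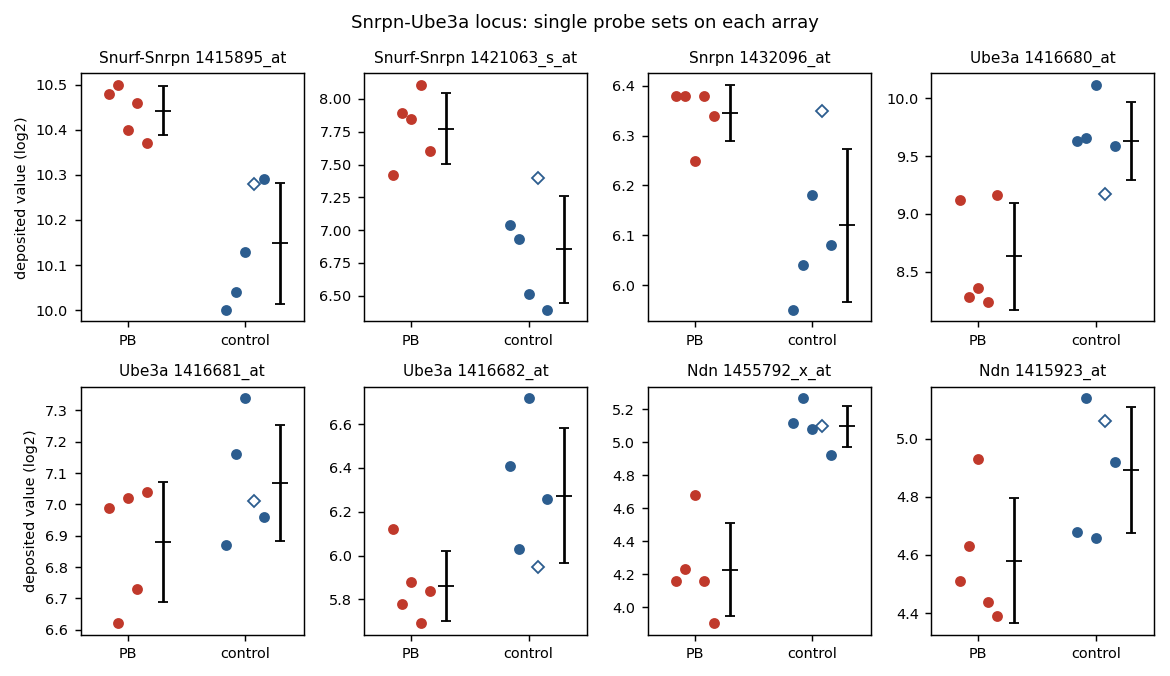
Deposited log2 value (y axis, a scale of its own in each panel) on each array for 8 probe sets of Snrpn, Ube3a and Ndn, phenobarbital (PB, red) left of control (blue), with mean ± SD (n = 5) and control replicate 4 as an open diamond. Treated animals lie above all controls for both Snurf-Snrpn probe sets and below them for the brightest Ube3a probe set and the Ndn probe set ranked 5, and the groups overlap in the other 4 panels.

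In the Kcnq1 domain, which the antisense RNA Kcnq1ot1 silences on the paternal copy, Slc22a18 was the sole gene of 7 members called. Kcnq1ot1 itself was read by 6 probe sets with log2 changes between -0.56 and 0.44. The probe set ranked 2 by brightness was called higher at 7.29, 7.80, 7.46, 7.47 and 7.78 in phenobarbital livers, against 7.18, 7.05, 7.03, 7.14 and 7.20 in control livers, without overlap (0.44 ± 0.10 SE, limma adjusted p = 0.0105; 0.42 with the spike-in block). The brightest had a log2 change of 0.17 that did not pass. The probe set with the lowest log2 change, ranked 4, did not pass and was at 4.82, 4.11, 4.28, 4.33 and 5.48 in phenobarbital livers, against 5.16, 5.25, 5.46, 4.38 and 5.55 in control livers, overlapping widely. The growth restrainers Cdkn1c, a cyclin-dependent kinase inhibitor, and Phlda2 were at -0.17 and 0.24, the potassium channel Kcnq1 at 0.12, the placental transcription factor Ascl2 at 0.13 and Tssc4 at 0.16, none passing. With the spike-in block Ascl2 and Tssc4 were at -0.31 and -0.08.

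H19, a non-coding RNA of the foetal liver, was near the bottom of the scale, and Igf2, a foetal growth factor, was near its middle on the brighter probe set and dim on the other. H19, which hosts the microRNA miR-675, was at 3.92, 3.68, 3.80, 3.80 and 3.80 in phenobarbital livers, against 3.81, 3.95, 3.82, 3.82 and 4.89 in control livers, on its sole probe set. Apart from control replicate 5, every animal lay below the lower quartile of its array, and no call was made (log2 change -0.26 ± 0.18 SE, limma adjusted p = 0.329 over all probe sets). Igf2 on its brighter probe set was at 6.02, 6.36, 6.08, 6.10 and 6.09 in phenobarbital livers, against 6.09, 5.78, 5.91, 6.08 and 6.05 in control livers (0.15 ± 0.08 SE, limma adjusted p = 0.225). Over the mean of its probe sets Igf2 passed (0.23, limma adjusted p = 0.0197). The dimmer was at 4.99, 4.6, 4.6, 4.65 and 4.52 in phenobarbital livers, against 4.46, 4.49, 4.33, 4.09 and 4.43 in control livers, and passed by a narrow margin (0.31 ± 0.10 SE, limma adjusted p = 0.049; 0.58 with the spike-in block). Its call was lost in 9 of 10 omissions of a single animal. Of 23 other genes read between Ctsd and Nadsyn1 around these domains 5 were called higher and none lower (median log2 change 0.09). Against this stood 1 higher of 8 members (0.15), and 9.02% higher and 11.3% lower of all genes. The 5 were Ctsd, Syt8, Tnnt3, Trpm5 and Igf2os, which stands next to Igf2 in chromosomal order (log2 change 0.24, limma adjusted p = 0.043). The 23 were taken by position, whether imprinted or not. They include Ins2, Th, Cd81, Tspan32, Osbpl5 and Nap1l4, none of them called, which are on the list of other imprinted genes described further on.

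The Peg10 domain held the most gene-level calls of the 14 loci, 3 of its 4 members, where 20.3% of all genes passed. Peg10 and Asb4 were among the dim genes, and of all dim genes 10.5% were called higher. Besides Peg10 and Asb4 (higher) and Ppp1r9a (lower), Sgce, the epsilon-sarcoglycan gene that starts next to Peg10, was at 6.83, 6.94, 6.95, 6.89 and 6.75 in phenobarbital livers, against 7.08, 7.34, 6.91, 7.28 and 7.01 in control livers. Control replicate 3 lay within the treated animals, and the log2 change of -0.25 ± 0.09 (SE) did not pass (limma adjusted p = 0.0557). Neighbours also went both ways: the sialic acid O-acetyltransferase gene Casd1 fell by 0.43 and the paraoxonase Pon2 by 0.27, while Pon3 rose by 0.25 (limma adjusted p = 0.00161, 0.0175 and 0.0288). In all, 3 of 12 other genes in the interval were called, beside 3 of the 4 members. The 12 include Calcr, Tfpi2, Pon2 and Pon3, which are on the list of other imprinted genes described further on. Of the called neighbours, Casd1 alone is not on that list.

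**Figure D5:**
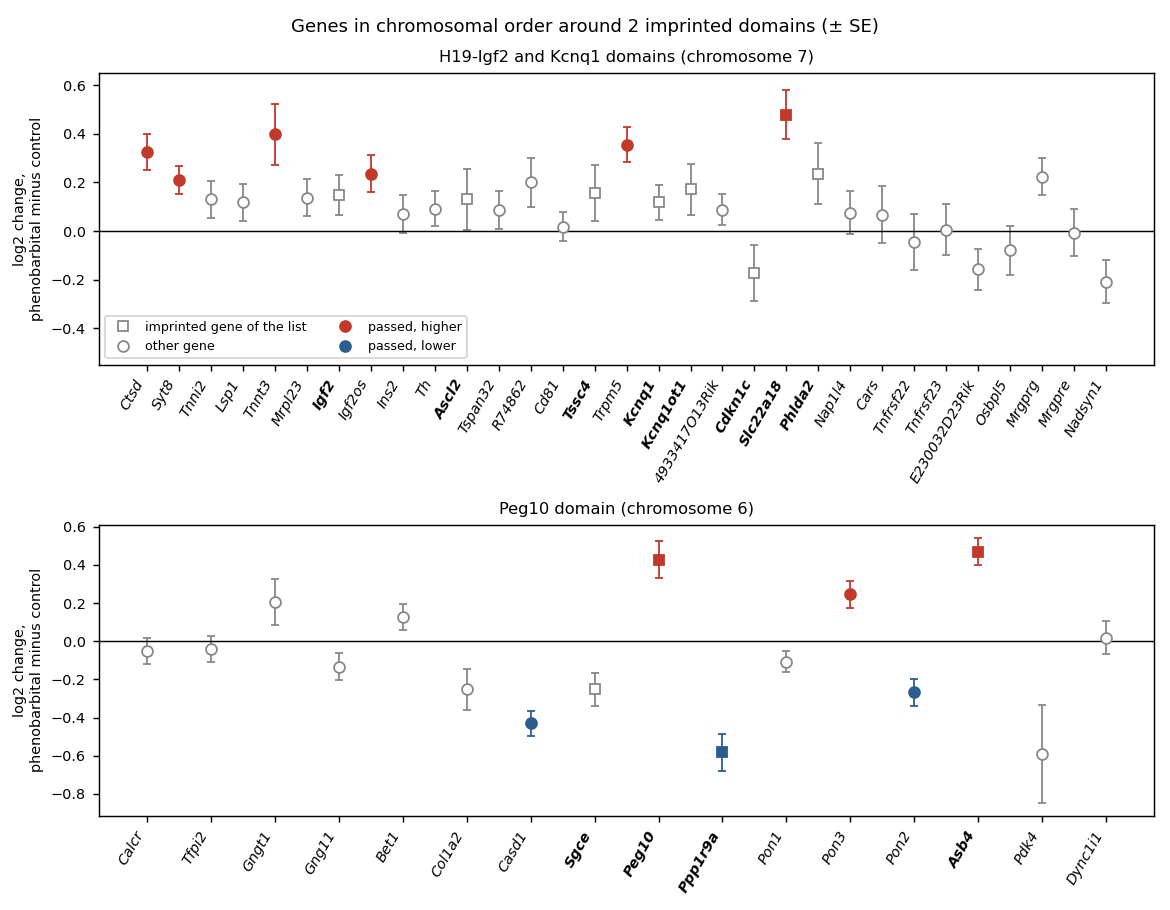
Log2 change ± SE (y axis, phenobarbital minus control) of genes in chromosomal order around the H19-Igf2 and Kcnq1 domains and the Peg10 domain (x axis, order only); squares and bold names mark listed imprinted genes, and filled symbols passed the gene-level test. Slc22a18 (0.48) is the highest point of the upper panel, and in the lower panel the filled points lie on both sides of 0.

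The remaining loci gave no gene-level call. Gnas, encoding the stimulatory G protein alpha subunit and several transcripts of either parental origin, was at 12.65, 12.81, 12.73, 12.78 and 12.65 in phenobarbital livers, against 12.57, 12.54, 12.47, 12.85 and 12.49 in control livers on its brightest probe set. Control replicate 4 was the highest of all 10, and the log2 change of 0.14 ± 0.08 (SE) did not pass (limma adjusted p = 0.223). Without that animal it passed (0.21, limma adjusted p = 0.0308). A dim Gnas probe set, ranked 4 of 5, was at 3.32, 3.18, 3.35, 3.35 and 3.29 in phenobarbital livers, against 4.21, 3.99, 4.49, 3.68 and 3.80 in control livers. The groups were separate (-0.74 ± 0.13 SE, limma adjusted p = 0.00366), with control replicate 4 nearest to the treated animals and a block value of -0.38. Grb10, an adaptor that restrains insulin and IGF receptors, spread widely at 7.68, 6.69, 6.97, 6.42 and 7.95 in phenobarbital livers, against 7.03, 7.10, 6.81, 7.43 and 7.15 in control livers (0.04 ± 0.25 SE). Impact, a regulator of the GCN2 kinase pathway, was at 8.31, 7.99, 8.07, 7.79 and 8.41 in phenobarbital livers, against 8.11, 8.08, 8.18, 8.09 and 8 in control livers (0.02 ± 0.10 SE). Treated animals lay on both sides of the controls for both genes. Commd1, a copper-handling protein, was at 10.03, 10.15, 10.10, 10.05 and 9.82 in phenobarbital livers, against 10.31, 10.22, 10.10, 10.07 and 10.11 in control livers (-0.13 ± 0.08 SE). Copg2, a coatomer subunit next to Mest, was at 7.86, 7.96, 8.17, 8.03 and 7.79 in phenobarbital livers, against 8.30, 8.18, 8.15, 7.95 and 8.11 in control livers (-0.18 ± 0.085 SE). The groups overlapped in both. Mest, a hydrolase-like gene, was at -0.03, the zinc finger gene Plagl1 at -0.29 and the Ras exchange factor Rasgrf1 at -0.08 (0.07 with the spike-in block), none passing.

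Parental origin as known in mouse did not sort the calls into a single direction. Of 15 tested members expressed from the maternal copy in at least some tissue 2 were called higher and 3 lower (median log2 change 0.08), with Ube3a, imprinted in neurons, among the lower. Of 16 expressed from the paternal copy in at least some tissue 2 were called higher and 1 lower (0.05). Over all genes 9.02% were called higher and 11.3% lower, the shares to set beside these counts and those of the lists that follow. No gene of any list of other genes or of markers described from here on passed with the spike-in block. Of 34 other imprinted genes measured, 5 were higher and 3 lower (median 0.07). The Polycomb-related Sfmbt2 rose by 0.59, Cobl by 0.56 and Nap1l5 by 0.47, and Dcn, encoding the matrix proteoglycan decorin and also on the list of stellate cell markers, fell by 0.55. Sfmbt2 (means of 4.26 in phenobarbital and 3.67 in control livers) and Nap1l5 (4.55 and 4.08) were dim. Whether their transcripts were present was not tested. Of 55 genes next to imprinted loci, 7 were higher and 4 lower (median 0.03). Those of largest change were the carboxypeptidases Cpa5 (0.44) and Cpa4 (0.37) and the troponin Tnnt3 (0.40), all higher, and Casd1 (-0.43), lower. The risers were dim, with means in phenobarbital and control livers of 4.56 and 4.12 for Cpa5. For Cpa4 these were 5.15 and 4.79, and for Tnnt3 4.13 and 3.73, while Casd1 was at 9.87 and 10.30.

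Factors that set or keep imprints and related chromatin proteins had 2 members higher and 8 lower of 35 measured (median log2 change -0.06, with 0.01 over all genes). The Polycomb subunit gene Suz12 fell by 0.70, Dnmt3a by 0.44 and the cohesin gene Rad21 by 0.39, and Tet1 rose by 0.41, none passing with the spike-in block (-0.02, -0.20, -0.20 and 0.33). In the insulin-like growth factor axis, 3 were higher and 5 lower of 24 measured (median -0.02). The adaptor Irs2 fell by 1.09, the insulin receptor Insr by 0.45 and the binding protein Igfbp2 by 0.44, while Igfbp5 rose by 0.94 (-0.82, -0.33, -0.59 and 0.53 with the spike-in block). The list of foetal liver genes silenced after birth, which also holds the repressor gene Zbtb20, had 1 higher and 1 lower of 16. Zbtb20 fell by 0.39 and the haem synthesis gene Alas2, also on the list of erythroid markers, rose by 0.38 (-0.14 and 0.07 with the spike-in block). Neither was at a silenced level, with means in phenobarbital and control livers of 10.52 and 10.91 for Zbtb20 and 10.93 and 10.56 for Alas2.

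Markers of liver cell types moved in part with the groups. None of 9 measured hepatocyte markers passed, and their mean level was 14.05 to 14.13 in phenobarbital livers and 14.10 to 14.18 in control livers. Of 10 stellate cell markers 7 were called lower and none higher, with a mean level of 8.155 to 8.625 in phenobarbital livers and 8.72 to 8.81 in control livers, and of 9 endothelial markers 5 were called lower (7.82 to 8.21 and 8.06 to 8.51). None of either list lay below the lower quartile of every array. Lrat, the retinol esterase of stellate cells, fell by 0.86 and the pericyte gene Rgs5 by 0.55. Kupffer cell markers had 1 of 9 lower, and lymphocyte and granulocyte markers and kidney markers none of 8 called each. Cholangiocyte and erythroid markers had 1 higher of 7 and of 3, and pancreas acinar markers 3 higher of 7, at mean levels of 5.48 to 5.70 in phenobarbital livers and 5.35 to 5.52 in control livers. The part of these shifts in the lower values of Peg3, Ndn and Igf2r or the higher values of the dim genes was not tested.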

How the data were processed

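RNA of 10 livers, 5 phenobarbital and 5 control, was read on Affymetrix 3′ expression arrays. The deposited values are log2 expression levels per probe set, named so from their range (2.34 to 15.13). GCOS is named in the submitters' processing notes, while the summarisation and normalisation are not given in the sources used here. Correlations between arrays ran from 0.9826 to 0.9967. Of 45037 probe sets apart from controls, 34945 had 1 gene symbol, 932 several and 9160 were not listed. Each of 18193 genes was represented by its single-symbol probe set of highest mean, and groups were compared with limma 3.58.1 (lmFit and eBayes, R 4.3.3) with Benjamini-Hochberg adjustment over all genes, or over all probe sets tested singly. A call is an adjusted p under 0.05. The code was tested on simulated data. The animals have their own identifiers in the labels. All members are accounted for, and array values are given for members with a call and for 10 genes set by name, of which H19 has a shared probe set and Slc22a3 none. Context lists name up to 4 called genes of largest change. Members and lists were chosen with earlier results of these data known, and pairs of probe sets, chromosomal intervals and parental origins after their values were seen. Alternatives were other scalings, probe set choices, variance models, blocks and omission of each animal.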

Additional observations from a re-analysis of the deposited data

Results flagged for a closer look

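In 5 of 92 sets of 5 values, a value stood apart from the other 4 of its group by Dixon's criterion, where chance gives about 1 in 20. H19 was at 4.89 in control replicate 5, with the other controls between 3.81 and 3.95. Igf2 was at 4.99 on its dimmer probe set in phenobarbital replicate 1, with 4.52 to 4.65 in the others, and at 6.36 on the brighter in phenobarbital replicate 2, with 6.02 to 6.10 in the others. Magel2 was at 4.68 in phenobarbital replicate 1, with 4.28 to 4.38 in the others. Gnas was at 12.85 on its brightest probe set in control replicate 4, with 12.47 to 12.57 in the others.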

How the results depend on the processing

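With the spike-in set as a block, and with the spike-in mean as a covariate, 0 genes and 0 probe sets of the list were called higher or lower by limma; the block leaves control replicate 4 as the control of the low set. Among brighter probe sets alone, 24 member genes and 38 member probe sets remained to be tested. Of these, 2 genes were called higher and 5 lower, and 8 probe sets higher and 5 lower. The 5 genes and 11 probe sets called in the main fit and still tested all kept their calls. Omitting single animals gave 4 to 6 genes higher and 3 to 4 lower, and 10 to 15 probe sets higher and 6 to 11 lower. Same-numbered animals did not deviate together (correlations -0.024, 0.021, -0.001, 0.104 and 0.116; 2 of 5 matched best with their own number), and the replicate block gave 4 genes higher and 4 lower, and 13 and 9 probe sets. Quantile normalisation called 2305 of all genes higher and 1539 lower, median centring 2188 and 1532, beside 1641 and 2051 as deposited, and both gave 6 members higher and 3 lower. Igf2r lost its call under both, under the mean of its probe sets and under the replicate block, and Peg3 under the mean of its probe sets. Calls gained included Snrpn under quantile normalisation, median centring, brighter probe sets alone, the mean of its probe sets, array weights and without control replicate 4, Igf2 under the mean of its probe sets (0.23, limma adjusted p = 0.0197), and Gnas without control replicate 4 (0.206, 0.0308). Uncalled values that changed sign included Ascl2 (-0.31, block), Tssc4 (-0.078, block), Rasgrf1 (0.072, block), Commd1 (0.003, covariate), Copg2 (0.012, block; 0.059, covariate), Gnas (-0.036, mean of probe sets; -0.01, single-transcript probe sets; -0.126, block; -0.097, covariate), Grb10 (-0.015, array weights; -0.288, block; -0.366, covariate; -0.164 to 0.219 without single animals), Igf2 (-0.006, covariate), Impact (-0.052 to 0.103 without single animals) and Snrpn (-0.004, block). The cause was not tested. Allowing shared probe sets, added after seeing the data, called 5 members higher and 4 lower.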
